A study of Astyanax mexicanus with 12 samples.

Results

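The genes described here were lower at 7 than at 5 days post-fertilization (dpf) in the liver of Tinaja cavefish and higher at 7 dpf in the liver of surface fish. These morphs belong to Astyanax mexicanus, whose populations live in rivers or in caves. RNA sequencing covered Tinaja at 7 dpf and at 5 dpf and surface fish at 7 dpf and at 5 dpf, with 3 libraries per group and the livers of 40 larvae pooled in each library. Larvae collected at 7 dpf had been fasted, and the study counts those at 5 dpf as fed. Age and feeding state therefore cannot be told apart in these libraries, and with pooled livers fewer cells of a type cannot be told apart from less RNA per cell. By the timing that the paper cites, visible yolk is used up before 5 dpf in surface fish and after it in cavefish. The nutritional state at 5 dpf may therefore differ between the morphs, which was not tested here. No source says that the pools of a group were raised apart, and embryos of several parent tanks were mixed, so a p-value here reflects how much pools varied, and that variation may be technical.

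The members were chosen by their measured age differences, on the scale of log2 CPM (a gene's count per 1000000 counted reads) averaged over the 3 libraries of a group. A gene qualified with a mean level under 10 log2 CPM, a Tinaja difference (7 minus 5 dpf) of at most -0.6 and a surface difference of at least 0.6. Of 17540 genes that passed the filter on low counts, 202 qualified, and the 100 with the largest value of the smaller of the 2 opposite differences were kept. The gene last to enter had a Tinaja difference of -0.963 and a surface difference of 0.751, and the next gene, left out, had -0.75 in Tinaja and 1.34 in surface fish. Over the members the Tinaja difference ran from -2.83 to -0.76 with a median of -1.07, and the surface difference from 0.75 to 3.45 with a median of 1.34. Over all tested genes these medians were 0.014 and -0.064. The median member was thus 2.09-fold lower at 7 dpf in Tinaja and 2.54-fold higher in surface fish, values that the choice itself fixed in direction.

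The liver holds glycogen and fat from which a fasting fish can draw energy, and larvae depend on food from outside once the yolk is spent. Cave populations are known for surviving long periods without food. A gene that moves in opposite directions in the morphs is therefore of interest in any comparison of their fasting responses. The identifiers of the table could not be paired with gene names here, so members are given by identifier and no role is stated for any of them. For the same reason the labelled tissue was not checked against liver markers.

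**Figure D1:**
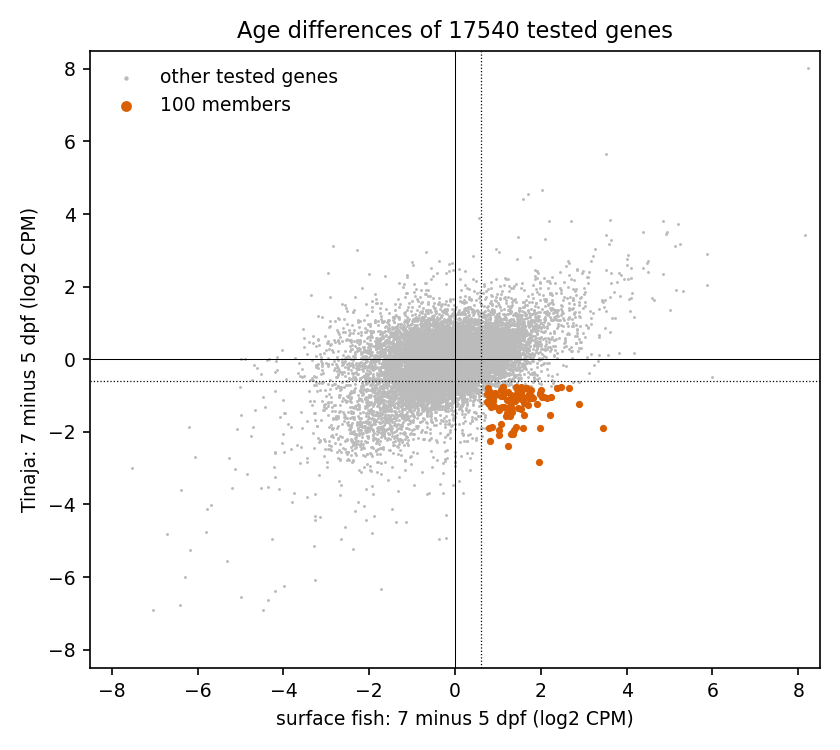
Each point is a gene, with the 7 minus 5 dpf difference in surface fish on the x axis and in Tinaja on the y axis, both in log2 CPM. The 100 members lie in the lower right corner set by the dotted thresholds of 0.6 and -0.6, where few of the 17540 tested genes fall.

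The members were weakly expressed. Their mean level had a median of 0.86 log2 CPM, against 2.99 over all tested genes. Under 0 log2 CPM lay 39 of the 100 members, against 14.2% of all tested genes, and 19 members reached 3 log2 CPM, against 49.9% of all. A median of 876 reads per member was counted over the 12 libraries, with a range of 67 to 57418, and 31 members had no read in at least 1 library. No read was found in any Tinaja library at 7 dpf for 4 members, and in any surface library at 5 dpf for 1 member. With these set to the bound that 3 reads over the group allow, the median differences stayed at -1.07 in Tinaja and 1.34 in surface fish. As a share of all counts in genes, the members took 0.0851% ± 0.0332 in Tinaja at 7 dpf against 0.204% ± 0.0409 at 5 dpf, and in surface fish 0.298% ± 0.215 at 7 dpf against 0.0908% ± 0.0237 at 5 dpf (SD, n = 3 each).

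Replicates of a group differed strongly in these genes. The SD within groups had a median of 1.31 log2 CPM over the members. It was 0.44 over all tested genes and 0.58 over the 5514 genes whose mean level lay within the members' interquartile range. The Tinaja ages did not overlap for 25 members, all 3 libraries at 7 dpf lying under all 3 at 5 dpf, a pattern that 12.4% of all tested genes showed. The surface ages did not overlap for 30 members, with 7 dpf above 5 dpf, against 20.2% of all genes. Both held for 5 members, against 0.228% of all genes, and neither for 50. The rule used these contrasts, so nothing is read from these shares. Among the 202 genes that qualified, both held for 15. Without surface 7 dpf replicate 3 both held for 16 of the 100 members, without Tinaja 5 dpf replicate 3 for 14 and without Tinaja 7 dpf replicate 1 for 13. Separate ages are easier to meet with fewer libraries, and the share over all genes is not given for these runs. Nothing is therefore read from these counts either.

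The 5 members with separate ages in both morphs are named after their values were seen. ENSAMXG00000011998 had 176, 137 and 87.7 CPM in Tinaja at 7 dpf, against 457, 724 and 438 CPM at 5 dpf. The surface libraries had 194, 162 and 160 CPM at 7 dpf, against 65.2, 43.2 and 113 CPM at 5 dpf. Tinaja thus stood far above surface fish at 5 dpf, and the ranges of the morphs met at 7 dpf. ENSAMXG00000024523 had 41.8, 33.0 and 28 CPM in Tinaja at 7 dpf, against 77.4, 108 and 49.9 CPM at 5 dpf. Surface fish had 69.3, 53.3 and 64.1 CPM at 7 dpf, against 30.1, 44.2 and 36.7 CPM at 5 dpf. Here the order of the morphs turned round between the ages, and the replicates were the tightest of all members, with an SD within groups of 0.36 log2 CPM. ENSAMXG00000036620 had 4.51, 4.52 and 0.764 CPM in Tinaja at 7 dpf, against 5.79, 9.17 and 5.21 CPM at 5 dpf. In surface fish it had 26.5, 13.5 and 20.04 CPM at 7 dpf, against 5.38, 9.22 and 13.1 CPM at 5 dpf. Its Tinaja difference of -1.31 became -0.52 without Tinaja 7 dpf replicate 3, short of the threshold. This gene was close between the morphs at 5 dpf, while all surface libraries lay above all Tinaja libraries at 7 dpf.

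The other members of these 5 rest on few reads. ENSAMXG00000035921 had 0, 4 and 2 reads in Tinaja at 7 dpf, against 29, 15 and 8 reads at 5 dpf. In surface fish it had 18, 6 and 9 reads at 7 dpf, against 4, 4 and 1 reads at 5 dpf. ENSAMXG00000030454 had 1, 6 and 7 reads in Tinaja at 7 dpf, against 19, 32 and 11 reads at 5 dpf. Its surface libraries held 7, 1 and 5 reads at 7 dpf, against 0, 1 and 0 reads at 5 dpf, a ratio of CPM of 12.3 with an exact 95% counting interval of 1.85 to 524, which covers counting error only. The level of both genes stayed under 2 CPM in every library, and in the surface libraries of ENSAMXG00000030454 the ages are separated by a difference of library size, with 1 read in the lowest library at 7 dpf and 1 in the highest at 5 dpf.

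**Figure D2:**
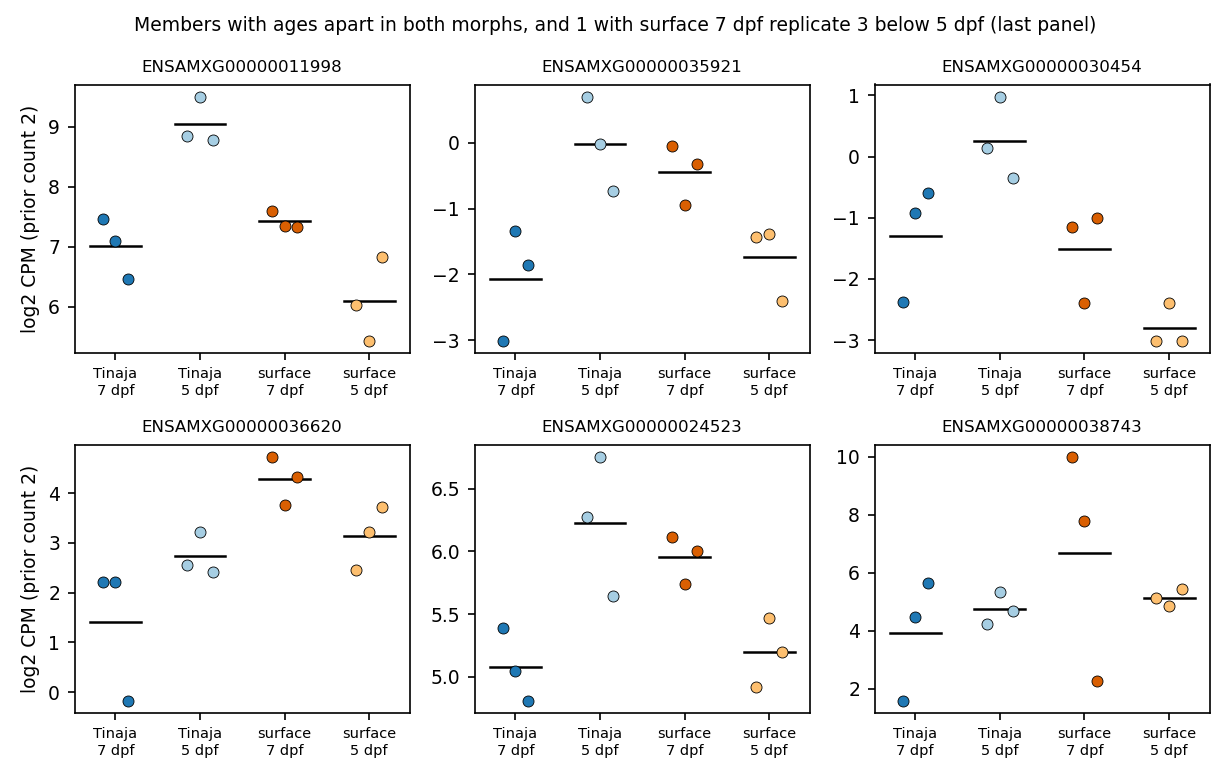
Each panel shows a gene in 12 libraries, as log2 CPM, with points for libraries and a line for the mean of the 3 libraries of a group. In the first 5 panels the ages are apart in each morph, while in the last, ENSAMXG00000038743, the surface libraries at 7 dpf run from 4.71 to 1027 CPM.

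The first and second genes by the size of the opposite differences were not among those with separate ages in both morphs. ENSAMXG00000013473, first by the rule, had 2.39, 0.539 and 0.306 CPM in Tinaja at 7 dpf, against 2.85, 53.6 and 1.5 CPM at 5 dpf. In surface fish it had 3.14, 4.89 and 5.46 CPM at 7 dpf, against 2.45, 1.49 and 0.258 CPM at 5 dpf. Its surface ages were separate, but its Tinaja ages overlapped, and its Tinaja difference of -2.83 became -1.29 without replicate 2 at 5 dpf. ENSAMXG00000030332, the second, had 0.205, 4.58 and 1.3 CPM in Tinaja at 7 dpf, against 5.95, 2.88 and 6.05 CPM at 5 dpf. In surface fish it had 1.64, 11.8 and 8.53 CPM at 7 dpf, against 2.94, 1.36 and 0.515 CPM at 5 dpf. Its ages overlapped in both morphs.

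A group of 32 members, defined after the values were seen, shared a pattern that the rule did not name. In these genes surface 7 dpf replicate 3 lay below every surface library at 5 dpf while replicate 1 lay above them all, which held for 3.56% of all tested genes. Replicate 2 also lay above them all in 29 of the 32, against 285 of the 624 tested genes with replicate 3 below and replicate 1 above. The rule used these same surface libraries, so nothing is read from these shares. The median CPM of the 32 genes was 43.3, 11.4 and 0.299 in surface replicates 1, 2 and 3 at 7 dpf, against 3.21, 0.974 and 2.96 at 5 dpf. In Tinaja it was 0.171, 1.18 and 1.68 at 7 dpf, against 1.27, 3.0 and 1.62 at 5 dpf. The highest and the second lowest of these 12 medians thus both belonged to surface fish at 7 dpf, and the lowest to Tinaja 7 dpf replicate 1.

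The most abundant of the 32, named after their values were seen, followed each other closely. ENSAMXG00000038743 had 2.87, 21.8 and 50.4 CPM in Tinaja at 7 dpf, against 18.8, 40.5 and 25.2 CPM at 5 dpf. In surface fish it had 1027, 219 and 4.71 CPM at 7 dpf, against 34.6, 28.6 and 43.1 CPM at 5 dpf. ENSAMXG00000020477 had 1.64, 15.98 and 42.6 CPM in the Tinaja libraries at 7 dpf and 993, 205 and 4.04 CPM in the surface libraries at 7 dpf, in the same replicate order. Across the 12 libraries their log2 CPM correlated at 0.996. After the group means were taken off, the 496 pairs among the 32 genes had a median correlation of 0.85 over the 12 libraries, against 0.15 for pairs among all 100 members. These correlations are descriptions, since the 32 were picked for shared values in 2 of the libraries. The median deviation of the 32 correlated at over 0.9 with 140 of the 17540 tested genes (0.798%). Of these 22 were members and 34 met both thresholds, and the median differences of the 140 were -0.44 in Tinaja and 0.97 in surface fish. Among these 22 members were 21 of the 32 genes. The 140 genes thus reached beyond the list, and held only a part of the members and of the 32.

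**Figure D3:**
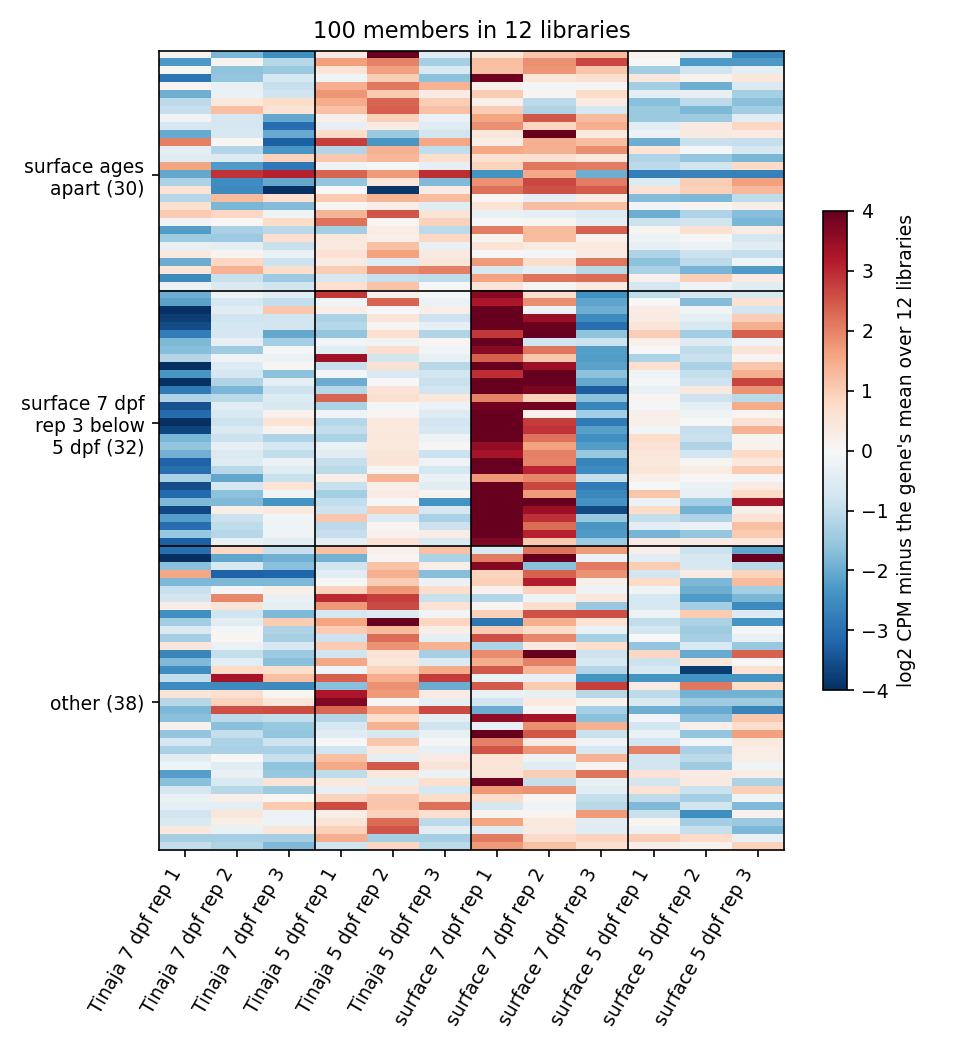
Rows are the 100 members and columns the 12 libraries, and colour gives log2 CPM minus the gene's mean over all libraries. In the middle block of 32 genes surface 7 dpf replicates 1 and 2 are high and replicate 3 and Tinaja 7 dpf replicate 1 are low, while the upper 30 genes have separate ages in surface fish.

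Single libraries also stood out over the whole list. Tinaja 7 dpf replicate 1 was the lowest of its group in 68 of the 100 members, against 43.5% of all tested genes, and Tinaja 5 dpf replicate 2 the highest of its group in 68, against 39%. Surface 7 dpf replicate 3 was the lowest of its group in 60 members, against 29.5% of all genes. The differences that chose the members came from these same libraries, so these counts are a description. Without Tinaja 7 dpf replicate 1, 69 members still met both thresholds and 50 were again among the 100 kept. Without surface 7 dpf replicate 1 the thresholds were met by 63 members, among them 6 of the 32, whose median surface difference was then 0.10. Without surface 7 dpf replicate 3 they were met by 97. The share of reads counted to no gene is taken from the summary row for no feature alone, out of all counts including the summary rows. In Tinaja it was 25.4% ± 2.14 at 7 dpf against 24.0% ± 5.27 at 5 dpf. In surface fish it was 21.7% ± 0.923 at 7 dpf against 30.7% ± 3.59 at 5 dpf (SD, n = 3 each). With this share as a covariate 86 members kept both signs and 70 both thresholds, while the surface difference became -0.061 for ENSAMXG00000036620 and -0.0076 for ENSAMXG00000024523. In the surface libraries this share did not overlap between the ages, at 27.15% or more at 5 dpf and 22.72% or less at 7 dpf. The adjusted surface differences therefore cannot tell this share apart from age, and nothing is read from them. With library totals in place of TMM scaling the surface difference of ENSAMXG00000024523 was 0.041 instead of 0.756, that of ENSAMXG00000036620 0.43 instead of 1.14, and that of ENSAMXG00000011998 0.61 instead of 1.33, so that the first of these genes hardly differed and the next also fell short of the threshold. Its part in the result was not tested further. Between 10.6 and 23.6 times 1000000 reads per library were counted in genes.

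The same differences were then read in libraries that had no part in the choice. The rule was applied to the 8 libraries of 2 replicate numbers, and both differences were measured in the 4 libraries of the number left out. Of the 100 genes chosen without replicates 1, 2 and 3, only 33, 40 and 44 were members. The values below therefore describe what the rule picks, and most of these genes are not on the list described here. Genes chosen without replicates 1 had a median Tinaja difference of 0.25 and a median surface difference of 0.57 in the libraries left out, against -1.23 and 1.19 in those used. Genes chosen without replicates 2 had -0.15 and 0.56, against -1.15 and 1.14. Genes chosen without replicates 3 had 0.31 and -2.77, against -1.75 and 2.55. In libraries left out the median Tinaja difference was thus small in replicates 2 and of the opposite sign in replicates 1 and 3. The surface increase turned into its opposite in replicates 3.

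Both signs were kept in the libraries left out by 29, 36 and 7 of the 100 genes chosen without replicates 1, 2 and 3, where 17.8%, 22.9% and 16.3% of all tested genes had these signs in the same libraries. Past both thresholds lay 10, 14 and 4 of them, against 3.48%, 4.08% and 1.38% of all tested genes. Both signs were reversed in 19, 18 and 52 of them, counts for which the share over all genes is not given. The members varied more within groups than all tested genes, and no background matched for spread was run. Nothing is therefore read from the distance of these counts to the shares over all genes. The Tinaja sign alone was kept by 46, 54 and 40, against 52.0%, 49.7% and 48.2% of all genes, and the surface sign by 64, 64 and 15, against 47.5%, 49.5% and 46.1%. A replicate number was used here only to name the libraries, and other choices of 4 libraries were not run.

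**Figure D4:**
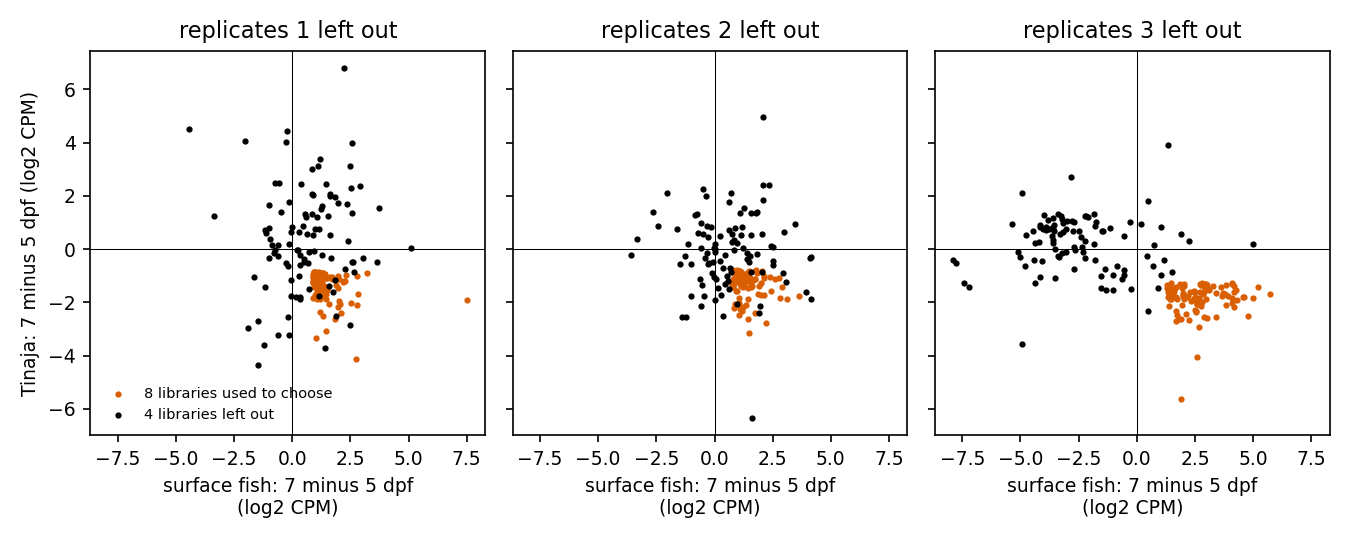
Each panel leaves out the 4 libraries of a replicate number, and plots the 7 minus 5 dpf difference of the 100 genes chosen on the other 8, in log2 CPM, with surface fish on the x axis and Tinaja on the y axis. The values in libraries left out (black) scatter on both sides of 0 in Tinaja, with 29, 36 and 7 genes in the lower right corner, and lie mostly below 0 in surface fish for replicates 3.

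The rule fixed how the gap between the morphs changed with age, since the gap at 7 dpf minus the gap at 5 dpf equals the Tinaja difference minus the surface difference. The gaps and orders that follow are therefore given as a description. At 7 dpf the median difference of Tinaja minus surface fish over the members was -2.33 log2 CPM, and at 5 dpf it was 0.37. Tinaja lay below surface fish at both ages for 42 members, above at both for 17, and above at 5 dpf but below at 7 dpf for 41. The most frequent order of the 4 group means was Tinaja 7 dpf, Tinaja 5 dpf, surface 5 dpf and surface 7 dpf from low to high, for 42 members. In the next most frequent order, for 20 members, Tinaja at 5 dpf stood between the surface ages and Tinaja at 7 dpf below them.

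The rule set no threshold on the mean level of each morph over both ages, and this level was compared across all genes. Averaged over ages, 59 of the 100 members differed between the morphs at a Benjamini-Hochberg adjusted p under 0.1 over all genes in edgeR's quasi-likelihood test, against 27.6% of all tested genes. Of these, 20 were higher in Tinaja (background 15.1%) and 39 lower (background 12.6%). At 2-fold or more, 18 were higher and 39 lower, against 9.12% and 6.77% of all genes. The filter on low counts asks for reads in only as many libraries as a group holds. A weakly expressed gene can thus pass it through a single morph, and its morph difference is then partly set by the filter. Weakly expressed genes were more frequent among the members than among all genes, and the members concerned were not counted. Without Tinaja 5 dpf replicate 1, 40 members were called in either direction, against 20.6% of all genes. Without surface 7 dpf replicate 1 it was 42, against 21.3%. The count of lower members depended on the test. In limma-voom, which works on log values, 30 members passed against 24.6% of all genes. It called 18 higher (background 13.6%) and 12 lower (background 11%), so that the count of lower members was near its background and that of higher members a little above it. Of these, 18 higher and 11 lower members passed in both tests. The share of all genes that passed both is not given, so nothing is read from these counts. The 32 members with surface 7 dpf replicate 3 below 5 dpf gave 19 of the 39 lower calls in edgeR and 0 calls in limma-voom. edgeR fits mean counts, in which a high library weighs more than in a mean of logs, so for such genes its contrast is not fully separate from the values that chose them. Among the 30 members with separate surface ages edgeR called 10 higher and 8 lower, and limma-voom 10 higher and 7 lower. Among the other 38 edgeR called 10 higher and 12 lower, and limma-voom 8 higher and 5 lower.

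**Figure D5:**
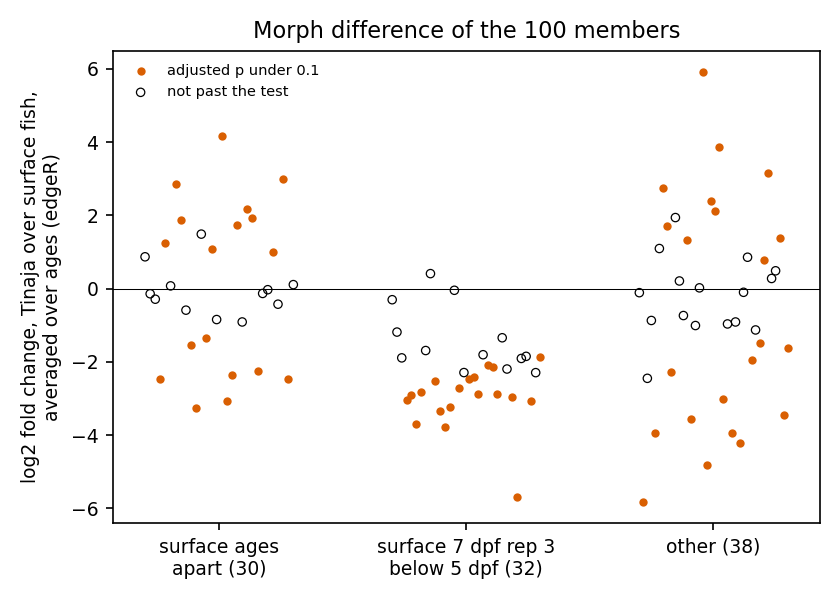
Each point is a member, placed by its log2 fold change of Tinaja over surface fish averaged over ages, with filled points for an adjusted p under 0.1 in edgeR. In the middle set of 32 genes 19 are called and all of these are lower in Tinaja, while the set of 30 holds 10 higher and 8 lower calls and the set of 38 holds 10 higher and 12 lower calls.

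The members furthest apart between the morphs were low in most libraries. A gene with almost no reads in a morph passed the filter on low counts through the other, so its morph difference is partly set by that filter. ENSAMXG00000041572 had 0.205, 6.27 and 1.38 CPM in Tinaja at 7 dpf, against 0.421, 0.397 and 0 CPM in surface fish. At 5 dpf it had 3.31, 1.67 and 4.37 CPM in Tinaja and no read in the surface libraries, at least 49-fold higher by the bound of 3 reads over the group. In edgeR its fitted morph difference was 5.91 on the log2 scale (SE 1.12, adjusted p = 0.00622), a value that depends on the prior count for a group without reads. Each SE given for edgeR is the absolute log2 fold change divided by the square root of the test's F statistic. It is an approximation, and is least reliable for a group without reads. ENSAMXG00000033662 had 0.274, 11.9 and 13.8 CPM in Tinaja at 7 dpf, against 0.187, 4.56 and 0.299 CPM in surface fish. At 5 dpf it had 8.07, 5.19 and 12.4 CPM in Tinaja, against 0.122, 0.13 and 0.129 CPM in surface fish. Averaged over ages edgeR put Tinaja 4.18 above surface fish on the log2 scale (SE 0.97, adjusted p = 0.0132), with no overlap of the morphs at 5 dpf and overlap at 7 dpf.

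ENSAMXG00000006074 had 0, 0.674 and 0.764 CPM in Tinaja at 7 dpf, against 14.0, 289 and 2.69 CPM in surface fish. At 5 dpf it had 0.776, 3.52 and 1.26 CPM in Tinaja, against 2.39, 2.01 and 79.1 CPM in surface fish. In 2 surface libraries, at 289 and 79.1 CPM, it stood far above the others. The morph difference passed in edgeR at -5.82 on the log2 scale (SE 1.41, adjusted p = 0.0157), and not in limma-voom (-4.34, adjusted p = 0.221). ENSAMXG00000035100 had 0.0684, 0.0674 and 0 CPM in Tinaja at 7 dpf, against 13.2, 34.8 and 0 CPM in surface fish. At 5 dpf it had 0.207, 0.519 and 0 CPM in Tinaja, against 0.428, 0.13 and 6.37 CPM in surface fish. This gene too passed in edgeR (-5.7, SE 1.44, adjusted p = 0.0188) and not in limma-voom (-3.9, adjusted p = 0.384), and a library of each group held no or almost no read.

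Of the 5 members with separate ages, ENSAMXG00000011998 was higher in Tinaja averaged over ages, by 1.25 on the log2 scale in edgeR (SE 0.27, adjusted p = 0.008). So was ENSAMXG00000030454, at 2.85 (SE 0.73, adjusted p = 0.0181). The surface libraries of ENSAMXG00000030454 held 13 reads at 7 dpf and 1 at 5 dpf. It passed the filter on low counts through Tinaja, so its morph difference is partly set by that filter. ENSAMXG00000036620 was lower in Tinaja, at -1.53 in edgeR (SE 0.38, adjusted p = 0.0158). ENSAMXG00000024523 stood at 0.11 (SE 0.2, adjusted p = 0.737) and ENSAMXG00000035921 at 0.08 (SE 0.68, adjusted p = 0.952), so neither passed.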

How the data were processed

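The authors deposited raw read counts for 27420 Ensembl gene identifiers in 12 columns, with 4 summary rows for reads given to no single gene, which stayed out of library sizes and tests. Per the study's methods and the submitters' processing notes, reads of 75 bp were aligned with STAR 2.7.3a to astMex_2.0, and RSEM 1.3.0 is named. Libraries were stranded, but which strand was counted is not stated in the sources read here, so overlapping genes, and paralogues that share reads, are uncertain. Of the identifiers, 0 matched the RefSeq table of AstMex3_surface.

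Counts were filtered with filterByExpr on 4 groups, scaled by trimmed mean of M values (TMM) and turned into log2 CPM with a prior count of 2. The morph difference averaged over ages was tested across all genes with edgeR 4.0.16 in R 4.3.3 (robust quasi-likelihood, 4 group means, 8 residual degrees of freedom), with Benjamini-Hochberg adjustment. limma 3.58.1 and DESeq2 1.42.0 served as alternatives. The age differences chose the members and were not tested. Members and tests were chosen with earlier results of these data known. The identifiers shown are the 2 members with the largest opposite differences, the 2 highest and 2 lowest by morph among members that passed, and 7 others stated as named after their values were seen, which the rule for identifiers without names did not include. In counts drawn with known differences between the morphs, 62% of 2-fold and 100% of 4-fold changes were recovered among 17028 genes, the changed genes all having a mean of at least 3 log2 CPM, a level that 19 of the members reached. The members also varied more within groups (median SD 1.31 log2 CPM, against 0.44 over all tested genes), so these shares need not hold for them.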

Additional observations from a re-analysis of the deposited data

Results flagged for a closer look

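In 5 members the libraries of the ages did not overlap in either morph, in opposite directions. The rule itself makes this more likely, and the difference was not tested. The surface minus Tinaja gap of the age differences of these members was 3.36 log2 CPM for ENSAMXG00000011998, 3.36 for ENSAMXG00000035921, 2.85 for ENSAMXG00000030454, 2.46 for ENSAMXG00000036620 and 1.9 for ENSAMXG00000024523. The values of ENSAMXG00000035921 and ENSAMXG00000030454 rest on few reads.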

How the results depend on the processing

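The list was sensitive to scaling and to single libraries, and the causes were not tested. When library totals replaced the TMM factors, 97 genes met both thresholds, 64 of the 100 members were chosen again and 3 had separate ages in both morphs. On that scale the median of all genes moved to -0.09 in Tinaja and -0.74 in surface fish, and the surface difference of ENSAMXG00000024523 was 0.041. With each library left out in turn, 171 to 332 genes met the thresholds, 50 to 76 members were chosen again and 6 to 16 of the 100 members had separate ages in both morphs, a condition that is easier to meet with fewer libraries. The counts of separate ages in these alternatives lack the share over all genes, so nothing is read from them. With surface 7 dpf replicate 3 and Tinaja 7 dpf replicate 1 both left out, an alternative chosen after seeing the data, 42 members were chosen again and 66 differed between the morphs (30.3% of all genes). Genes chosen without the libraries of a replicate number, of which 33 to 44 were members, kept both signs there in 7 to 36 of 100. They reversed both signs in 18 to 52 of 100. The count of members that differed between the morphs averaged over ages was 59 (27.6% of all genes), and it was 30 in limma-voom (24.6%), 65 in DESeq2 (31.4%) and 40 to 61 without each library (20.6% to 33.1%). With the replicate number as a block it was 45 (22.5%), and in this balanced design the block cannot change an age difference. Of 18 same-numbered pairs of libraries, 3 correlated at over 0.1 (range -0.283 to 0.41). All 3 lay between the ages of a morph, at 0.242 in surface replicates 1 and at 0.177 and 0.41 in Tinaja replicates 1 and 3. Most of the 18 pairs join different morphs, so this count cannot decide whether the numbers pair libraries within a morph. With the share of reads counted to no gene as a covariate the surface difference became -0.061 for ENSAMXG00000036620 and -0.0076 for ENSAMXG00000024523. That share did not overlap between the surface ages, so these values cannot tell it apart from age. ENSAMXG00000041572 and ENSAMXG00000033662 passed under every alternative run, with an adjusted p of up to 0.0182 and 0.0872. Both were low in most surface libraries, so the limit set by the filter on low counts holds for them too.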
